A study of Homo sapiens with 12 samples.

Results

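The subject is CD81 together with 6 other tetraspanins (CD9, CD63, CD82, CD151, TSPAN3 and TSPAN4) and 2 immunoglobulin-superfamily partners of CD81 (IGSF8 and PTGFRN), 9 genes of 31654 in the expression table. They were taken by symbol, and all 9 were in the table and passed the filter on low values. CD81 was chosen by its measured FPKM in U87TR against U87MG, and the others were added by symbol with the results known, so that contrast is given for the 9 genes as a description, with no test. RNA was sequenced from 4 human glioblastoma lines with 3 libraries each: the parental lines U251MG and U87MG, and the resistant lines U251TR and U87TR, obtained from those parents by repeated culture with rising doses of temozolomide, the alkylating drug used against glioblastoma. All lines were grown in the same medium with serum, and no group was described as treated at harvest. Each parent had 1 resistant line. The labels leave unsaid whether that line was a clone and whether libraries came from separate cultures. The p-values therefore measure the spread between these libraries, which may be technical.

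Tetraspanins are small proteins that cross the membrane several times and gather integrins, proteases and receptors into membrane microdomains. CD81 is an entry receptor for hepatitis C virus and is used with CD9 and CD63 as a marker of extracellular vesicles. IGSF8 (EWI-2) and PTGFRN (EWI-F) are its closest known lateral partners, and both also bind CD9.

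The deposited values are FPKM, fragments per kilobase of transcript scaled to the library's total, so levels can be set beside each other between genes. Libraries had 13135 to 14122 genes at 1 FPKM or more, and 15449 genes with that level in at least 3 libraries were tested. U251MG replicate 2 stood apart from its group, with rank correlations across genes of 0.977 and 0.978 to the other two against 0.993 between them, and results that rest on it are given with and without it. U87TR libraries carry codes from a number block of their own, so block and line cannot be told apart wherever U87TR is compared. Of 8 glioma and astroglial markers, all 8 averaged at least 1 FPKM in U251MG and U251TR and 5 did in U87MG and U87TR. The 5 were not the same genes in U87MG and U87TR. OLIG2 averaged 1.14 FPKM in U87MG and 0.263 in U87TR, and GFAP 0.753 and 1.75. SOX2 and S100B were listed at 0 in every U87MG library, and GFAP was at most 1.41 FPKM there. Leukocyte markers summed to at most 1.13 FPKM in the U251 libraries. They summed to 10.97 to 16.26 FPKM in U87MG and 14.11 to 17.02 FPKM in U87TR, nearly all of it CSF1R, while PTPRC, the common leukocyte antigen, stayed at or under 0.05 FPKM in the U87 libraries.

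CD81 was above 140 FPKM in every library of 3 lines and was nearly absent from the other line. The U251MG libraries had 156.23, 197.83 and 154.51 FPKM and the U251TR libraries 144.7, 148.98 and 164.43. The U87MG libraries had 168.65, 169.88 and 183.11 FPKM and the U87TR libraries 0.08, 0.29 and 0.01. All 3 U87TR libraries lay far below the other 9. Group means were 174 ± 8.02 in U87MG, 169.5 ± 24.5 in U251MG, 153 ± 10.4 in U251TR and 0.127 ± 0.146 FPKM in U87TR (SD, n = 3). In that order the libraries of U251MG overlapped those of both its neighbours, U87MG and U251TR, while every U87MG library was above every U251TR library, a pair that was not tested. The overlap with U87MG rests on U251MG replicate 2 (197.83 FPKM). Without it the U251MG libraries were below all those of U87MG and still overlapped those of U251TR. All changes below are given on the scale of log2(FPKM + 1), and all folds are ratios of FPKM + 1. On that log2 scale CD81 in U87TR minus U87MG came to -7.28 (SE 0.11). The size of this value depends on the added constant, because the U87TR values are close to 0: it was -9.78 with 0.1 FPKM added instead. In U251TR against U251MG, a comparison that had no part in the choice of the gene, the log2 change of CD81 was -0.14 (SE 0.11, adjusted p = 0.318), and the libraries of the 2 lines overlapped. Without U251MG replicate 2 that change was -0.03 (adjusted p = 0.841). The log2 difference of U87MG minus U251MG was 0.04 (SE 0.11), given with no test.

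**Figure D1:**
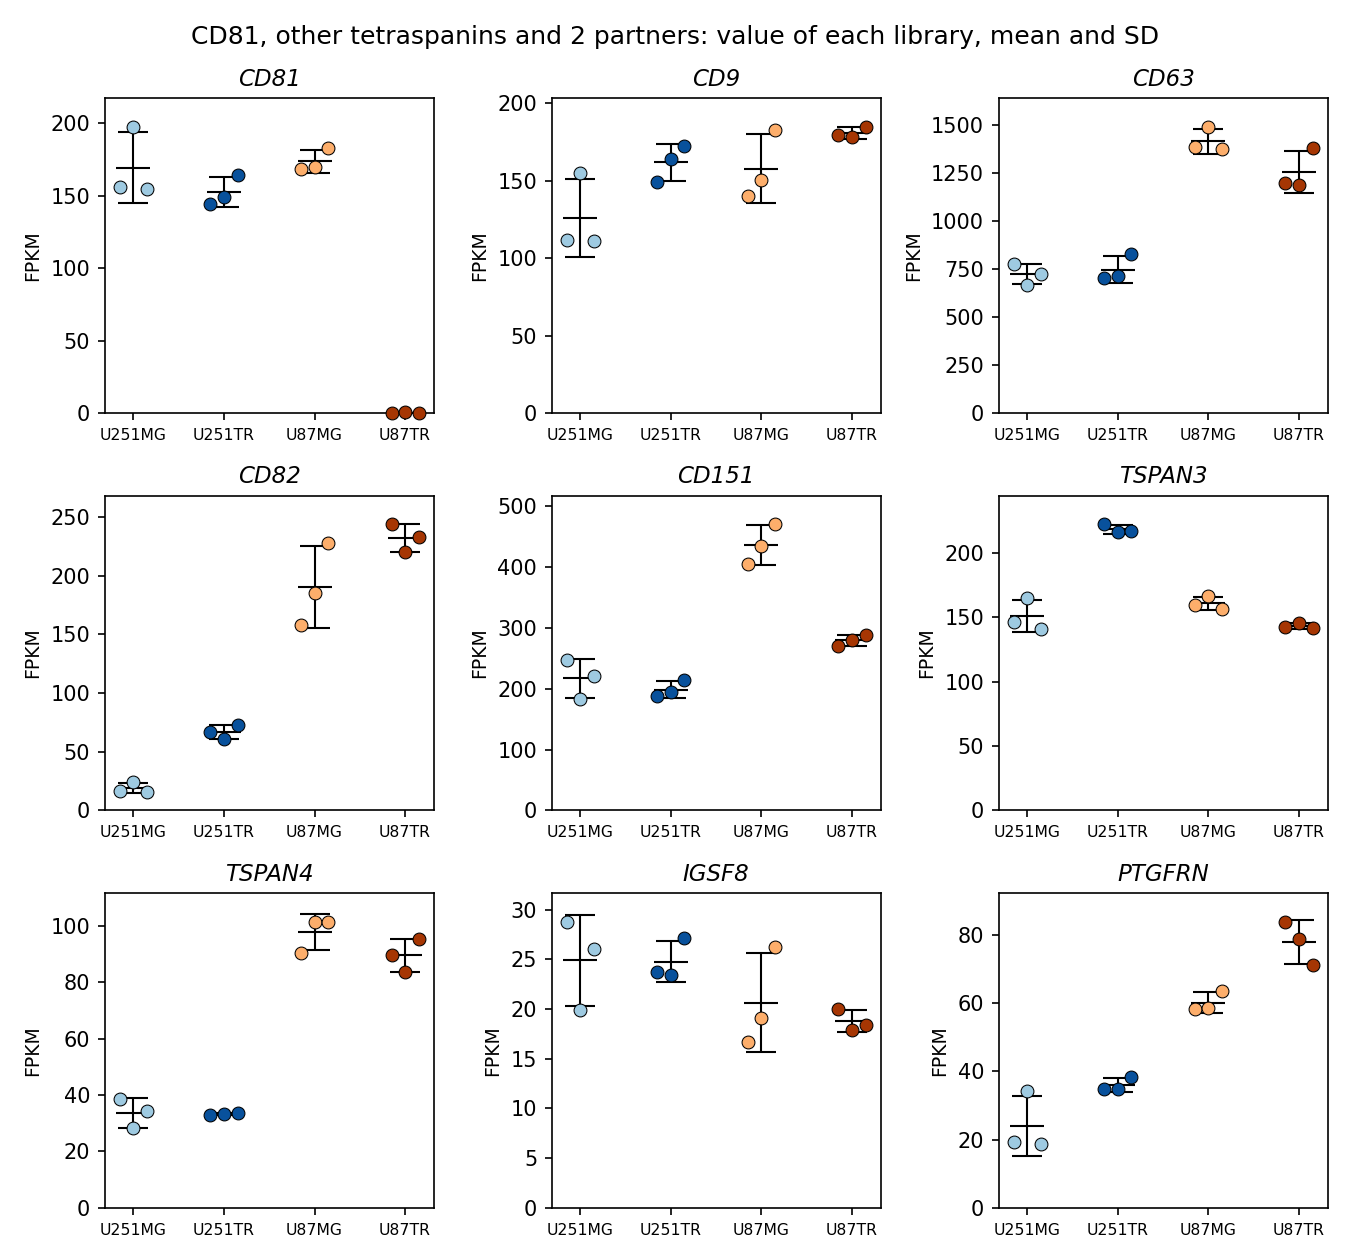
FPKM of each library (points) for the 9 genes in the 4 lines, with the group mean and SD as bars. Every vertical axis starts at 0. CD81 lies between 144.7 and 197.83 FPKM in 9 libraries and at most 0.29 in the 3 U87TR libraries, while the other 8 genes are present in all 12.

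The loss of CD81 took 1 abundant transcript out of the family. Summed over all 33 human tetraspanin genes, the level was 2827 ± 117 FPKM in U87MG and 2397 ± 123 in U87TR (SD, n = 3). Without CD81 the sums were 2653 ± 112 and 2397 ± 123 FPKM (SD, n = 3). CD81 made up 10.1% ± 1.47 of the family's FPKM in U251MG, 8.23% ± 0.0464 in U251TR, 6.15% ± 0.232 in U87MG and 0.00545% ± 0.00633 in U87TR (SD, n = 3). The ratio of CD81 to CD9 ranged from 0.908 to 1.4 in the 9 libraries of the other lines and was at most 0.00163 in U87TR.

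CD9, a tetraspanin that shares the EWI partners of CD81, was above 110 FPKM in all 12 libraries. It had 111.85, 155.26 and 111.08 FPKM in U251MG and 149.21, 164 and 172.49 in U251TR. In U87MG it had 140.19, 150.2 and 182.62 FPKM, and in U87TR 179.34, 178.1 and 184.92. U251MG replicate 2 was the highest of its group and reached into the U251TR range, and U87MG replicate 3 reached into the U87TR range. CD9 rose 1.3-fold in U251TR (log2 change 0.37, SE 0.13, adjusted p = 0.0295). That call was lost without U251MG replicate 1 (adjusted p = 0.111), U251MG replicate 3 (0.115), U251TR replicate 2 (0.0739) or U251TR replicate 3 (0.0955), with median-of-ratios scaling (0.146), with no filter (0.0634) and on the 6 U251 libraries alone (0.0699), while without U251MG replicate 2 the log2 change was 0.53 (adjusted p = 0.00087). In U87TR the log2 difference from U87MG was 0.21 (SE 0.13), so where CD81 was nearly absent CD9 was between 178.1 and 184.92 FPKM.

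CD63, the tetraspanin of late endosomes and lysosomes, was the most abundant of the 9 in every line. It averaged 1415 ± 65.8 FPKM in U87MG, 1254 ± 109 in U87TR, 747 ± 68.9 in U251TR and 722 ± 52.6 in U251MG (SD, n = 3). The libraries of U251MG and U251TR overlapped, as did those of U87MG and U87TR. In U251TR its log2 change was 0.05 (SE 0.09, adjusted p = 0.689), and its sign turned with median-of-ratios scaling and without U251MG replicate 2 or U251TR replicate 3. In U87TR the log2 difference was -0.18 (SE 0.09).

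CD82, known as the metastasis suppressor KAI1, differed most between the lines apart from CD81. The U251MG libraries had 16.83, 24.18 and 16.11 FPKM and the U251TR libraries 67.08, 60.8 and 72.54. The U87MG libraries had 158.18, 184.9 and 228.13 FPKM and the U87TR libraries 243.99, 220.51 and 232.7. The U251TR libraries were all above those of U251MG and all below those of both U87 lines, which overlapped each other. CD82 rose 3.43-fold in U251TR (log2 change 1.78, SE 0.15, adjusted p = 1.65e-06). The log2 change was 1.95 without U251MG replicate 2, and it passed under every alternative run. In U87TR the log2 difference was 0.30 (SE 0.15).

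CD151, which binds the laminin receptors of the integrin family, had 404.25, 434.93 and 470.34 FPKM in U87MG and 270.74, 279.45 and 288.14 in U87TR. All 3 U87TR libraries were below all 3 U87MG libraries, with a log2 difference of -0.64 (SE 0.10). Its U251MG and U251TR libraries ran from 182.94 to 247.4 FPKM and overlapped. The log2 change in U251TR was -0.12 (SE 0.10, adjusted p = 0.362), and -0.24 without U251MG replicate 2 (adjusted p = 0.0316), where it passed.

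TSPAN3, a broadly expressed tetraspanin, stood in opposite order in the resistant lines. It had 146.43, 164.78 and 141.29 FPKM in U251MG and 222.52, 216.02 and 217.38 in U251TR. In U87MG it had 159.87, 166.68 and 156.22 FPKM and in U87TR 142.85, 146.03 and 141.83. All U251TR libraries were above their parent's and all U87TR libraries were below theirs. TSPAN3 rose 1.45-fold in U251TR (log2 change 0.54, SE 0.07, adjusted p = 3.99e-05), while the log2 difference in U87TR was -0.16 (SE 0.07). TSPAN4, a relative known from migrasomes, the vesicles left on retraction fibres of moving cells, was at 97.8 ± 6.41 FPKM in U87MG, 89.5 ± 5.78 in U87TR, 33.6 ± 5.19 in U251MG and 33.2 ± 0.305 in U251TR (SD, n = 3). The libraries of each resistant line overlapped those of its parent, with log2 differences of -0.13 (SE 0.10) in U87TR and -0.01 (SE 0.10, adjusted p = 0.968) in U251TR.

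The partners of CD81 did not share its loss. PTGFRN had 58.16, 58.6 and 63.66 FPKM in U87MG and 83.9, 78.72 and 71.26 in U87TR, with no overlap and a log2 difference of 0.37 (SE 0.18). In U251MG it had 19.35, 34.19 and 18.71 FPKM and in U251TR 34.84, 34.81 and 38.37. U251MG replicate 2 was close to the U251TR libraries, and the other two were lower. PTGFRN rose 1.53-fold in U251TR (log2 change 0.61, SE 0.18, adjusted p = 0.0112). The log2 change was 0.88 without U251MG replicate 2, and the call was lost without U251MG replicate 1 (adjusted p = 0.0504) or U251MG replicate 3 (0.0522) and on the 6 U251 libraries alone (0.0573). IGSF8 ranged from 16.7 to 28.79 FPKM over the 12 libraries. Each resistant line overlapped its parent, with log2 changes of 0.01 in U251TR (SE 0.16, adjusted p = 0.989) and -0.11 in U87TR (SE 0.16). Both signs could turn with 1 library left out. The first was -0.14 without U251MG replicate 2 and -0.06 without U251TR replicate 3, and the second was 0.07 without U87MG replicate 3. The first also turned with median-of-ratios scaling (-0.13) and after quantile normalization (-0.09).

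Of the 9 genes, 4 rose in U251TR (CD9, CD82, TSPAN3 and PTGFRN) and none fell. Among all genes tested 53.2% changed in this comparison, 33.6% upward and 19.6% downward, so the count of 4 in 9 is near the background. The libraries of 3 of the 9 (CD82, TSPAN3 and PTGFRN) did not overlap, all 3 higher, beside 58.9% of all genes tested (36.4% higher). The median log2 change of the 9 was 0.05, against 0.10 for all genes tested. Without U251MG replicate 2, 5 of the 9 passed, and without U251MG replicate 1 or replicate 3 only 2 did. In U87TR the libraries of 4 of the 9 did not overlap those of U87MG (CD81, CD151 and TSPAN3 lower, PTGFRN higher), beside 46.6% of all genes tested (18.3% higher, 28.3% lower), and the median log2 difference was -0.13 against -0.05 for all genes tested. Without U87MG replicate 3, 7 of the 9 did not overlap.

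**Figure D2:**
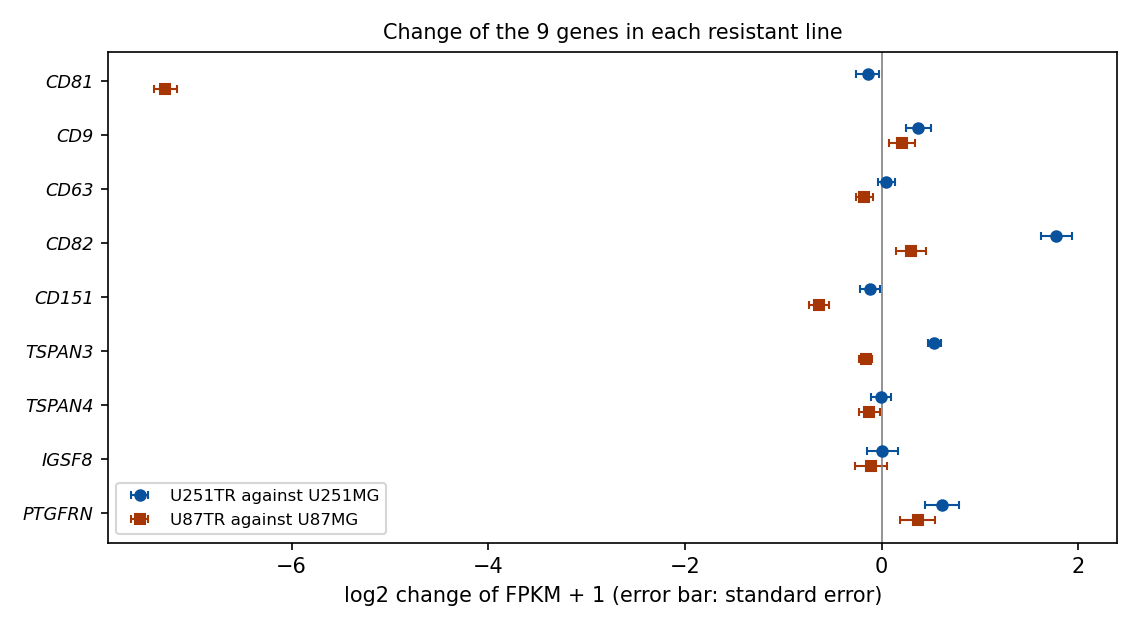
Change of each of the 9 genes in U251TR against U251MG (circles) and in U87TR against U87MG (squares) on the scale of log2(FPKM + 1), with the standard error. CD81 is at -7.28 in U87TR, and the other 8 genes lie between -0.64 and 0.37 there; the largest change in U251TR is that of CD82, at 1.78.

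Between the parental lines CD82 differed most, and the count of differing genes was near the background. Of the 8 genes other than CD81, 6 were higher in U87MG than in U251MG and none was lower, where 32.2% of all genes tested were higher, 40.1% were lower and 72.3% differed. The libraries of 5 of the 8 did not overlap, all higher in U87MG, beside 32% of all genes tested. CD82 was 9.59-fold higher in U87MG (log2 difference 3.26, SE 0.15, adjusted p = 1.82e-09), TSPAN4 2.87-fold, PTGFRN 2.53-fold, CD151 2.02-fold and CD63 1.96-fold, and these are the 5 with no overlap. CD9 was 1.26-fold higher (adjusted p = 0.038), but its libraries overlapped. Its call was lost with no filter (0.0775), after quantile normalization (0.129), on the 6 parental libraries alone (0.112) and without any 1 of 6 libraries, namely U251MG replicate 1 (0.137) or 3 (0.142), U87MG replicate 2 (0.0552) or 3 (0.159), U251TR replicate 2 (0.0503) and U87TR replicate 2 (0.0504). TSPAN3 and IGSF8 did not pass, with log2 differences of 0.10 (SE 0.07, adjusted p = 0.227) and -0.27 (SE 0.16, adjusted p = 0.152). TSPAN3 passed without U251MG replicate 2 (0.0208) and with median-of-ratios scaling (0.0135), and IGSF8 without U251MG replicate 2 (0.027) or U87MG replicate 3 (0.0158).

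The other 26 tetraspanins of the human genome were all in the table, and 20 of them were tested. The other 6 (TSPAN8, TSPAN11, TSPAN16, UPK1A, UPK1B and PRPH2) did not reach 1 FPKM in any library, UPK1A and UPK1B being the uroplakins of the bladder and PRPH2 a photoreceptor gene. In U251TR 9 of the 20 rose and 1 fell, where 33.6% of all genes tested rose and 19.6% fell. In U87TR 5 rose and 3 fell, where 10.6% of all genes tested rose and 17.2% fell. CD53 is among the 5, and it passed the filter through the U87TR libraries alone. Their median log2 change was 0.27 in U251TR and 0.13 in U87TR, against 0.10 and -0.05 for all genes tested.

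TSPAN13 and TSPAN1 rose in both resistant lines. TSPAN13 went from 9.74 ± 2.04 to 21 ± 0.0808 FPKM in U251TR and from 13.9 ± 2.3 to 38.6 ± 1.24 FPKM in U87TR (SD, n = 3), a log2 change of 1.42 in the latter (SE 0.13, adjusted p = 8.26e-06). TSPAN1 went from 0.907 ± 0.217 to 3.57 ± 0.335 FPKM in U251TR and from 3.35 ± 0.383 to 9.35 ± 0.809 in U87TR (SD, n = 3). The log2 changes in U251TR and U87TR were 1.05 and 1.42 for TSPAN13 and 1.27 and 1.25 for TSPAN1.

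Several of the tetraspanins that guide the protease ADAM10, the TspanC8 group, moved differently in the lines. TSPAN33 rose in U251TR from 3.75 ± 0.167 to 10.8 ± 0.537 FPKM (SD, n = 3), 2.5-fold as a ratio of FPKM + 1. It was at 0.587 ± 0.159 and 0.61 ± 0.19 FPKM in U87MG and U87TR (SD, n = 3). TSPAN5 fell in U251TR (log2 change -1.11), to 6.7 ± 0.553 FPKM, and was at 21.8 ± 0.496 FPKM in U87TR (SD, n = 3). TSPAN10 rose 1.64-fold in U251TR as a ratio of FPKM + 1. In U87TR it fell (log2 change -1.99) from 16.2 ± 0.384 to 3.37 ± 0.855 FPKM (SD, n = 3). For these 3 genes the difference between the changes in the lines passed the test, with adjusted p = 4.63e-05, 3.43e-05 and 8.51e-06. TSPAN14 and TSPAN17, the most abundant of the group, were at 28.3 and 57.3 FPKM on average in U87MG and did not pass the test in U87TR (adjusted p = 0.582 and 0.0883). TSPAN17 passed there without U251MG replicate 2 (0.0396) and on the 6 U87 libraries alone (0.0453). In U251TR TSPAN17 rose (log2 change 0.28, adjusted p = 0.0264). That call was lost without U251MG replicate 1 (0.0925) or 3 (0.0901) or U251TR replicate 2 (0.0976) or 3 (0.0941). It was also lost with median-of-ratios scaling (0.244) and on the 6 U251 libraries alone (0.0755). The difference between its changes in the lines passed as well (-0.51, adjusted p = 0.00794). TSPAN15, also of this group, did not pass in U251TR (adjusted p = 0.0962) or U87TR (0.359). The difference between its changes did not pass either (0.685). ADAM10 itself fell in U87TR (log2 change -0.67, adjusted p = 0.00351). In U251TR it rose 1.32-fold (adjusted p = 0.0253), a call lost without U251MG replicate 1 (0.0563) or 3 (0.0952), without U251TR replicate 1 (0.0564) or 2 (0.109), with no filter (0.0556), with median-of-ratios scaling (0.0899) and after quantile normalization (0.057).

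TSPAN6 and TSPAN32 also differed between the lines (adjusted p = 3.09e-05 and 0.000475 for the difference). TSPAN6 went from 10.5 ± 0.516 to 4.61 ± 0.424 FPKM in U87TR (SD, n = 3), a fall that passed at adjusted p = 3.78e-05. TSPAN32, a haematopoietic tetraspanin whose gene lies close to CD81, had 1.39, 0.98 and 1.44 FPKM in U87MG and was listed at 0, 0 and 0.01 in U87TR. It rose in U251TR, with libraries at 6.46, 6.4 and 5.49 against 2.25, 5.72 and 2.11 FPKM, a call (adjusted p = 0.0127) that was lost without U251MG replicate 1 (0.0567) or 3 (0.0591) and on the 6 U251 libraries alone (0.0618). Of the 20, 11 differed in their change between the lines, 4 toward U87TR and 7 toward U251TR, beside 47.6% of all genes tested (15.4% and 32.1%). CD53, a tetraspanin of leukocytes, is counted among the 4 toward U87TR. It had 0.15, 0.21 and 0.65 FPKM in U87MG and 2.04, 1.77 and 1.68 in U87TR. Only the U87TR libraries reached 1 FPKM, so CD53 passed the filter through the group where it was high. Its change is therefore given with no test. The leukocyte markers beside it summed as given above, with PTPRC at 0.02, 0.05 and 0.02 FPKM in U87TR.

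**Figure D3:**
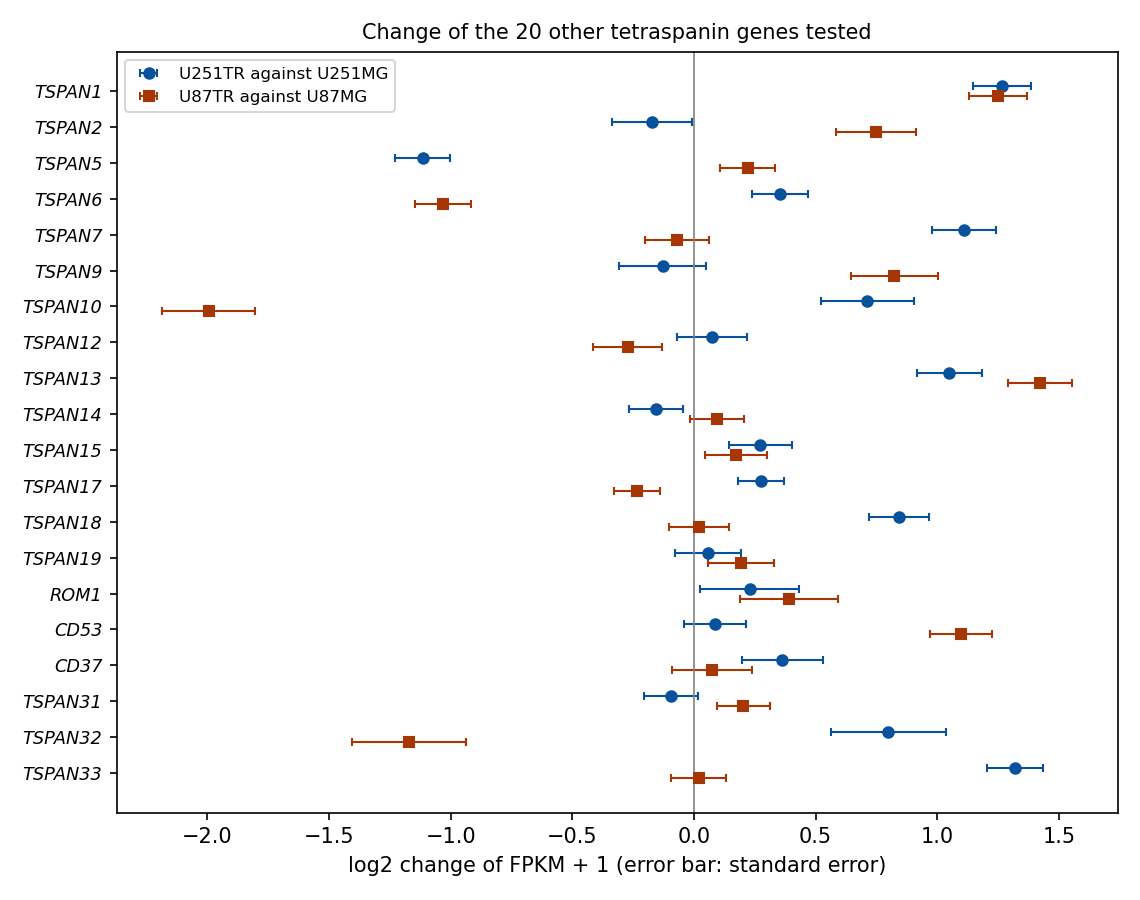
Change of the 20 other tetraspanin genes that were tested, in U251TR against U251MG (circles) and U87TR against U87MG (squares), on the scale of log2(FPKM + 1) with the standard error. TSPAN1 and TSPAN13 lie to the right in both lines, while TSPAN10, TSPAN32 and TSPAN6 lie to the left in U87TR alone and TSPAN5 in U251TR alone.

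Genes whose products are known to bind tetraspanins included some that rose and some that fell in each line. Of 18 tested, 8 rose and 7 fell in U251TR, where 53.2% of all genes tested changed. In U87TR 6 rose and 5 fell, where 27.8% of all genes tested changed in either direction. Their median log2 change was 0.18 in U251TR and 0.13 in U87TR. The list held 23 genes, of which 20 were in the table, and CD101 and EPCAM did not pass the filter.

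Among the adhesion genes, ITGA6, a laminin-binding integrin chain that pairs with CD151, rose in both lines. It went from 20.9 ± 1.76 to 47.8 ± 2.48 FPKM in U251TR and from 1.05 ± 0.168 to 6.62 ± 0.479 in U87TR (SD, n = 3). ITGA3, a more abundant integrin chain of the list, averaged 284 FPKM in U251MG and 266 in U251TR (adjusted p = 0.93). It averaged 572 FPKM in U87MG and 675 in U87TR, without overlap, and did not pass there either (adjusted p = 0.407). ITGA7, another laminin-binding chain, went from 86.2 ± 3.49 to 35.2 ± 4.73 FPKM in U251TR and from 27.4 ± 7.64 to 57.3 ± 4.31 in U87TR (SD, n = 3), both past the test (adjusted p = 2.99e-05 and 0.000346). ITGB1, which pairs with many alpha chains, had a log2 change of -0.33 in each line (adjusted p = 0.00568 and 0.0119). These calls were lost after rescaling to TPM in U251TR (0.0644) and without U87TR replicate 3 in U87TR (0.0519). CD44, the hyaluronan receptor, fell in U87TR from 1045 ± 87.3 to 507 ± 46.3 FPKM (SD, n = 3, adjusted p = 4.76e-06).

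IGSF3, of the same EWI family as IGSF8 and PTGFRN, had the largest change of the list in U87TR. It had 0.55, 0.63 and 0.81 FPKM in U87MG and 6.1, 6.13 and 5.13 in U87TR (log2 change 2.03, SE 0.15, adjusted p = 1.48e-06). All U87TR libraries were above all U87MG libraries. In U251TR it rose 1.79-fold, from 12.3 ± 3.48 to 22.3 ± 0.901 FPKM (SD, n = 3). MMP14, a membrane-bound matrix protease, fell from 10 ± 0.471 to 0.48 ± 0.221 FPKM in U251TR (SD, n = 3, adjusted p = 1.31e-09). In U87TR MMP14 went from 281 ± 12.3 to 207 ± 18.9 FPKM (SD, n = 3), a smaller fall (log2 change -0.44, adjusted p = 0.00997). That call was lost with a pseudocount of 0.1 (0.158). IFITM1, an interferon-induced protein once described with CD81 on lymphocytes, rose in U251TR from 4.1 ± 1.04 to 37.1 ± 13.4 FPKM (SD, n = 3). As a ratio of FPKM + 1 this rise was 7.28-fold. IFITM1 stayed at or under 0.3 FPKM in the U87 libraries. The IFITM genes are near-identical copies, so its value may hold reads of the others. CLDN1, which acts beside CD81 in hepatitis C virus entry, rose from 9.58, 2.61 and 9.75 to 29.92, 26.57 and 29.72 FPKM in U251TR (adjusted p = 0.000219). EZR, which ties membrane proteins to actin, fell in U251TR (log2 change -1.05, adjusted p = 2.17e-07) and rose 1.3-fold in U87TR (adjusted p = 0.00207).

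Genes of vesicle formation, the process CD81, CD9 and CD63 serve to mark, included RAB27A, which rose in U251TR, and HGS, which fell in U87TR. All 21 of the list were tested. In U251TR there were 9 that rose, 0 that fell and 12 that did not pass, where 33.6% of all genes tested rose and 19.6% fell, and the median log2 change was 0.21, beside 0.10 for all genes tested. In U87TR 4 rose and 5 fell, where 10.6% and 17.2% of all genes tested did, with a median of -0.17 beside -0.05. RAB27A, which docks multivesicular endosomes at the cell surface, went from 11 ± 0.718 to 32.5 ± 0.944 FPKM in U251TR and was at 36.1 ± 1.66 in U87MG and 32.6 ± 1.91 in U87TR (SD, n = 3). FLOT2 rose 2.08-fold, RAB11A 1.87-fold and SDC4 2-fold in U251TR. HGS, a subunit of the ESCRT machinery that sorts cargo into endosomal vesicles, had 108.27, 108.66 and 102.19 FPKM in U87MG and 42.41, 42.21 and 47.19 in U87TR (log2 change -1.26, SE 0.10, adjusted p = 1.61e-06). VPS4B, an ATPase that takes ESCRT apart, also fell in U87TR (log2 change -0.77, adjusted p = 0.0005). ANXA2 rose 1.52-fold and SDC4 1.61-fold in U87TR, the latter a call (adjusted p = 0.0168) lost without U87MG replicate 1 (0.0713), U87MG replicate 2 (0.0655) or U87TR replicate 1 (0.0585). In U87TR the count of 9 changed genes was 5 without U87MG replicate 2 or U87TR replicate 1, 6 with no filter or without U87TR replicate 2, and 13 without U251MG replicate 2.

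CD81 lies on the short arm of chromosome 11, in a region that holds imprinted genes such as PHLDA2 and CDKN1C. CD151, TSPAN4 and CD82 are on the same chromosome. The 5 tested genes on each side of CD81, in the order of the RefSeq gene table of assembly GRCh38.p14, were CTSD, MRPL23, C11orf21, TSPAN32 and RPL26P30 on one side and TSSC4, CDKN1C, PHLDA2, NAP1L4 and OSBPL5 on the other. In U87TR 8 of these 10 fell and 0 rose, where 17.2% of all genes tested fell. RPL26P30, a copy of a ribosomal protein gene, and CDKN1C did not pass. CDKN1C was at most 0.04 FPKM in U87MG already. The median log2 change of the 10 was -0.62. On the whole of chromosome 11, 298 of 739 tested genes fell in U87TR (40.3%) and 44 rose (5.95%), beside 17.2% and 10.6% of all genes tested. The median log2 change of the 739 was -0.25, against -0.05 for genes of the other chromosomes. In U251TR 33.6% of all genes tested rose and 19.6% fell. Of the 739, 141 fell there (19.1%), and 3 of the 10 neighbours rose and 2 fell. Of those falls, MRPL23 was lost without U251MG replicate 1 (adjusted p = 0.1) or 2 (0.103), without U251TR replicate 1 (0.142), with no filter (0.0689), after rescaling to TPM (0.137) and on the 6 U251 libraries alone (0.0843). PHLDA2 passed as lower without U251MG replicate 2 (0.00995).

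The neighbours kept different amounts of their parental level. PHLDA2, an imprinted growth regulator, had 51.05, 56.69 and 45.92 FPKM in U87MG and 1.42, 1.67 and 2.06 in U87TR (log2 change -4.27, SE 0.24, adjusted p = 1.27e-07). TSSC4, the next gene after CD81, had 40.02, 38.92 and 36.63 FPKM in U87MG and 21.27, 26.11 and 28.26 in U87TR (log2 change -0.60, SE 0.11, adjusted p = 0.00152). C11orf21, which overlaps TSPAN32 in the reference so that their reads may be shared, had 0.5, 0.94 and 0.67 FPKM in U87MG and was listed at 0 in all 3 U87TR libraries. OSBPL5 fell by 1.43, MRPL23 by 0.63, CTSD by 0.55 and NAP1L4 by 0.51 on the log2 scale. Of the 4 members on chromosome 11, CD81 and CD151 were lower in every U87TR library than in any of U87MG, while TSPAN4 (-0.13) and CD82 (0.30) overlapped. The part of the chromosome's lower level in these values was not tested.

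**Figure D4:**
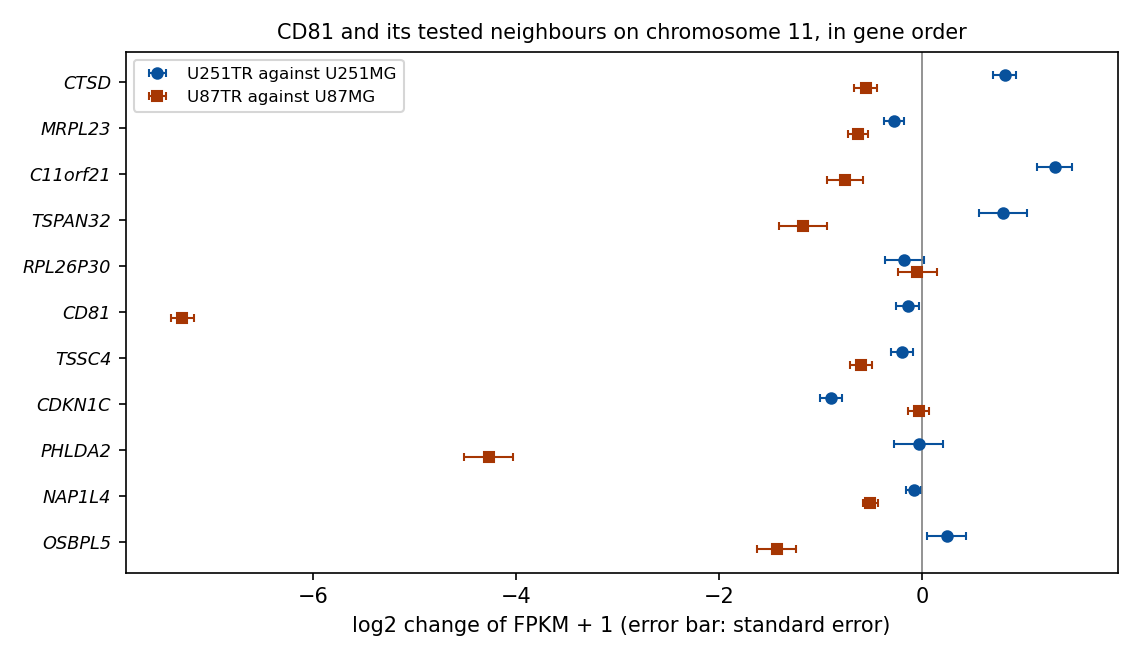
Change of CD81 and of the 5 tested genes on each side of it, from top to bottom in gene order on chromosome 11, in U251TR against U251MG (circles) and U87TR against U87MG (squares), on the scale of log2(FPKM + 1) with the standard error. In U87TR CD81 (-7.28) and PHLDA2 (-4.27) lie far to the left, and TSSC4 between them is at -0.60.

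Among the genes whose levels followed CD81 most closely over the 12 libraries were RNASEH2C, SSSCA1, SNX6, RELA and ZNF287, with Pearson correlations of log2(FPKM + 1) from 0.984 to 0.988. These values are a description, since all of them rest on the 3 U87TR libraries against the other 9. Chromosome 11 held 739 of the 15449 genes tested, and 40.3% of those 739 fell in U87TR, the fall on which the ranking rests. Of the 5 genes named, 3 are on that chromosome (RNASEH2C, SSSCA1 and RELA). They kept part of their level: RELA, a subunit of NF-kB, was at 57.8 ± 6.5 FPKM in U87MG and 26.3 ± 0.854 in U87TR, and RNASEH2C, a subunit of an RNA-cleaving enzyme, at 95.6 ± 5.14 and 37 ± 2.9 (SD, n = 3). The other two fell further: SNX6, a sorting nexin of endosomes, was at 36.45, 38.7 and 42.42 FPKM in U87MG and 1.08, 1.03 and 1.1 in U87TR, and ZNF287 was at 4.65, 4.67 and 4.88 FPKM in U87MG and listed at 0 in all 3 U87TR libraries.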

How the data were processed

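The authors' deposited table gives 1 FPKM value per gene symbol and library, made with the aligner STAR (version 2.5.2b) and the quantifier RSEM (version 1.2.31), per the submitters' processing notes. Those notes give the build as hg19 and the series' design text as hg38, so no coordinates are printed. The labels give the values no unit. They were read as FPKM because value times mean transcript length added up to 0.911 to 0.976 of what FPKM would give. The table holds no counts, so depth is unknown. Of 31681 rows, 27 with symbols turned into dates were left out.

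The 15449 genes that reached 1 FPKM in 3 or more of 12 libraries were fitted in limma 3.58.1 (R 4.3.3) on log2(FPKM + 1), as group means over all 12 libraries with a variance trend and robust moderation. Tests were two-sided, with Benjamini-Hochberg adjustment over all genes tested and a threshold of 0.05. The fit was also run on simulated data with independent noise for each gene. That run does not bear on an outlying library, on scaling or on values near 0, and no result here rests on it. The members, lists and rules were chosen with earlier results of these data known. Named genes were the 9 members, up to 4 changed genes of largest size per list and comparison, the 5 tested neighbours on each side of CD81 and the 6 genes most correlated with it, of which 1 is not reported here. Any other gene was named after its values were seen. Alternatives were a pseudocount of 0.1, no filter, 3 scalings, a fit on 6 libraries, a replicate block and leaving out each library.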

Additional observations from a re-analysis of the deposited data

Results flagged for a closer look

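The genes first covered here are those named for the size of their change in the lists of other tetraspanins, tetraspanin partners and vesicle genes. Of them, 19 had changes that differed between the lines by the interaction test (limma, adjusted over all genes tested, of which 47.6% passed). TSPAN1 (-0.01), TSPAN13 (0.37) and SDC4 (-0.31) did not pass. The genes were taken for large changes in a line, and TSPAN10, TSPAN32, TSPAN6 and TSPAN5 also for this difference. Passing was thus favoured in advance, so the count cannot be compared with that share. Values are the log2 change in U87TR minus that in U251TR. Among tetraspanins it was -2.71 for TSPAN10, -1.97 for TSPAN32, -1.38 for TSPAN6, -1.30 for TSPAN33, -1.18 for TSPAN7 and 1.34 for TSPAN5. Among tetraspanin partners it was -2.72 for IFITM1, -1.84 for CLDN1, -1.31 for CD44, 0.74 for ITGA6, 1.19 for IGSF3, 2.35 for ITGA7 and 2.47 for MMP14. Among vesicle genes it was -1.63 for RAB27A, -1.09 for HGS, -1.07 for RAB11A, -0.80 for FLOT2, -0.54 for VPS4B (adjusted p = 0.0202) and 0.45 for ANXA2. Of genes named after their values were seen, EZR (1.43), TSPAN17 (-0.51) and ADAM10 (-1.07) also passed this test. TSPAN14 (0.25), TSPAN15 (-0.10), ITGA3 (0.27) and ITGB1 (-0.0015) did not. CD53 (1.01) is given with no test, since it passed the filter through the U87TR libraries alone. Of the 10 neighbours of CD81, TSPAN32 among them, 8 passed, 7 with negative values and 1 with a positive value. TSPAN3 was higher in all 3 U251TR libraries than in any of U251MG and lower in all 3 U87TR libraries than in any of U87MG, with a log2 difference of -0.16 in U87TR; this difference between the lines was not tested, because the U87 contrast had a part in the choice of the genes.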

How the results depend on the processing

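Counts of called genes stayed within 1.5 times under most alternatives. The exceptions were the 9 genes in U251TR (4 called, 2 on the 6 U251 libraries alone, 2 to 5 with 1 library left out), the vesicle genes in U87TR (9 called, 5 to 13 with 1 library left out) and the 9 genes in U87TR (4 without overlap, 7 after quantile normalization, 4 to 7 with 1 library left out). With a replicate block the 4 calls among the 9 genes in U251TR again numbered 4 and those in the parental comparison 6; same-numbered libraries had correlations of their deviations between -0.0579 and 0.116, so the numbers were not taken to pair them, and FLOT2 in U87TR passed at 0.0429 but not with the replicate block (0.0524). Some values turned their sign. In U251TR, CD63 was -0.0913 with median-of-ratios factors and -0.0274 to 0.0984 with 1 library left out. TSPAN4 was 0.103 after rescaling to TPM and -0.125 to 0.0939 with 1 left out. IGSF8 was -0.128 with median-of-ratios factors, -0.0941 after quantile normalization and -0.143 to 0.115 with 1 left out. PHLDA2 was 0.0791 and NAP1L4 0.028 after rescaling to TPM. With 1 left out PHLDA2 ranged from -0.406 (adjusted p = 0.00995) to 0.184 and RPL26P30 from -0.391 to 0.00734. In U87TR, TSPAN33 was -0.0368 after quantile normalization and -0.0725 to 0.10 with 1 left out, and RPL26P30 ranged from -0.178 to 0.0711. The cause of these shifts was not tested. The share of called genes that were higher was 63.2% in U251TR (72.1% after rescaling to TPM, 50.9% with median-of-ratios factors, 50.5% after quantile normalization) and 38.1% in U87TR (48.5% after quantile normalization). CD81 in U87TR ranged from -9.78 to -7.21 over all alternatives. Depth is unknown, so the values near 0 in U87TR carry no counting interval.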
